A study of Mus musculus with 36 samples.

Results

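The comparison was between mouse embryonic fibroblasts (MEFs) that carried the Casp8 D387A KI together with Cflar KO and Mlkl KO, called here D387A Cflar Mlkl MEFs, and MEFs that were Mlkl KO only. It took the 6 libraries of the series labelled as MEFs with these genotypes, 3 of each, out of 36 libraries in all, and every gene counted in them. Both groups lacked Mlkl, so the contrast held the loss of Cflar and the caspase-8 change together, and the share of each cannot be told apart. MEFs are primary fibroblast cultures grown from the body of the embryo after the head and internal organs are taken away, and these were used below passage 5. The cultures were untreated, and their labels number them as biological replicates without saying whether each came from its own embryo. The p-values therefore measure the spread between these cultures. The sample titles of the mutant cultures name the 2 deletions only, and the caspase-8 change stands in the genotype label.

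Caspase-8 is the protease that death receptors recruit through the adaptor FADD. Its partner cFLIP, the product of Cflar, resembles caspase-8 without its protease activity, and dimers of the pair restrain necroptosis, the lytic death that MLKL carries out, and can also take part in apoptosis. The D387A change removes an aspartate at which caspase-8 is normally cleaved between its subunits. Death receptor complexes also feed the NF-κB pathway, in which kinases mark IκB inhibitors for destruction, freeing dimers of Rel proteins to enter the nucleus. Many of the genes these dimers switch on encode the pathway's own inhibitors, and others encode chemokines, which are secreted proteins that attract leukocytes. The comparison asks which transcripts differed in unstimulated fibroblasts that carried these alleles.

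Each library held 20927014 to 32307629 reads on genes, and 15465 genes passed the filter on low counts. Levels are given as RPKM, read counts scaled to gene length and library size, computed from the deposited counts. The cultures carried the fibroblast program: all 14 fibroblast markers passed the filter, 0 of 14 passed the edgeR test (0 at an unadjusted p under 0.05, 0 in DESeq2 and 0 in limma-voom), and their summed level was 33882 to 38441 CPM (counts scaled to library size only) in Mlkl MEFs and 34941 to 36237 in D387A Cflar Mlkl MEFs. No neutrophil or erythroid marker passed the filter, and of the 14 lists of cell type markers examined only that of macrophages held genes past the edgeR test. By their Y-linked transcripts the Mlkl group held 2 male cultures and 1 female, and the D387A Cflar Mlkl group 1 male and 2 female. In these bulk samples fewer cells of a type and less RNA per cell cannot be told apart.

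Cflar, the deleted gene, was the first check of the labels. It read 10.9, 10.8 and 11.7 RPKM in the Mlkl cultures and 7.17, 7.09 and 7.66 RPKM in the D387A Cflar Mlkl cultures. Every mutant culture lay under every control culture, but the transcript was lowered and not lost. The log2 fold change was -0.61 ± 0.06 (SE, n = 3 against 3; edgeR adjusted p = 0.0114). Counts were made per gene, so they do not show which exons remained. The paper places the Cflar and Mlkl deletions of the mutant line inside each gene, so reads outside them can still be counted. Casp8, whose change is a single codon that a gene count cannot see, read 12.5, 15.7 and 14.2 RPKM against 14.2, 16.4 and 15.3 RPKM, with a log2 fold change of 0.11 ± 0.09 (edgeR adjusted p = 0.894). Mlkl is deleted in both groups, yet its gene still gathered reads, at 4.64, 9.53 and 7.90 RPKM against 7.41, 9.17 and 7.06 RPKM. The groups overlapped for Casp8 and for Mlkl, whose log2 fold change was 0.10 ± 0.24 (edgeR adjusted p = 0.963).

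Few genes passed the edgeR test, and in that fit they were mainly higher. Unless another tool or the replicate block is named, passing refers to the edgeR test without the block. At an adjusted p under 0.05 and a log2 fold change beyond 1 in either direction, 11 genes were called in D387A Cflar Mlkl MEFs, 0.0711% of the genes tested, and all 11 were higher. They were Nfkbia, Lyz2, Serpina3g, Mmp9, Relb, Clec4n, C3, Cxcl10, Acod1, Nfkbie and Marco. No gene was called lower by edgeR, although 460 genes were lower (2.97%) and 541 higher (3.5%) at an unadjusted p under 0.05. DESeq2 called 33 genes higher and 3 lower, and limma-voom called 10 higher and 0 lower. At any fold DESeq2 passed 104 of the 15465 genes tested, 74 higher and 30 lower, the background for its list counts below. Without the fold limit 17 genes passed the edgeR test (0.11% of the genes tested), 15 higher and 2 lower (0.097% and 0.0129%). The 6 that changed by less were Nfkb2, Traf3, Mt2 and Ecscr, which rose, and Cflar and Aspn, which fell. The median log2 fold change over all genes tested was -0.0016.

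**Figure D1:**
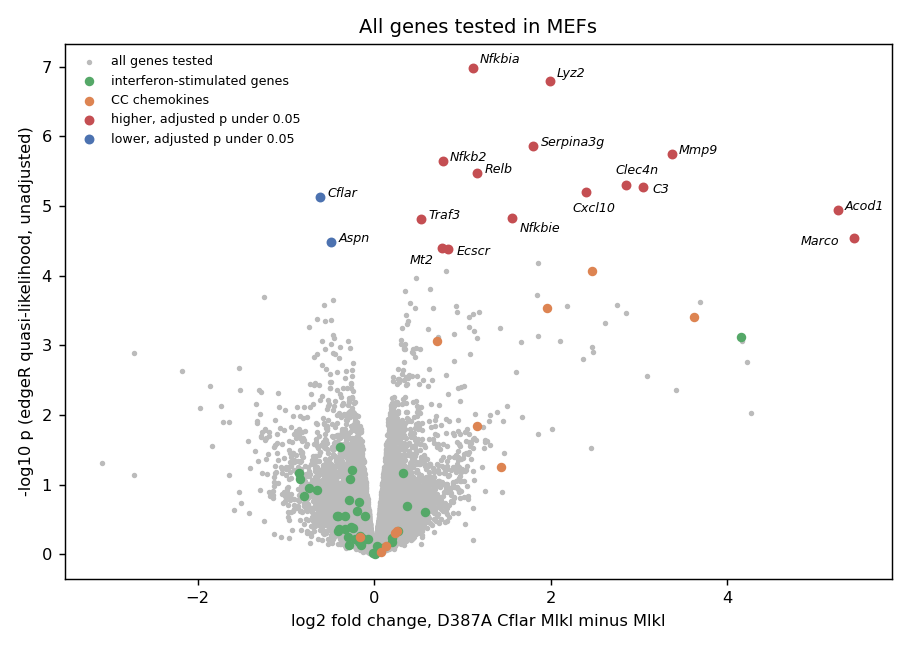
Log2 fold change (horizontal, D387A Cflar Mlkl minus Mlkl MEFs) against -log10 of the unadjusted edgeR p (vertical) for the 15465 genes tested, with 3 cultures in each group. Red points are the 15 genes that rose and blue points the 2 that fell at an adjusted p under 0.05, orange points are CC chemokines and green points interferon-stimulated genes, most of which lie near or below 0 on the horizontal axis.

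The number of calls depended on single cultures. Leaving out Mlkl replicate 2 left 2 calls, D387A Cflar Mlkl replicate 2 left 3, D387A Cflar Mlkl replicate 3 left 5 and Mlkl replicate 1 left 6, whereas leaving out Mlkl replicate 3 gave 12 and D387A Cflar Mlkl replicate 1 gave 14. Nfkbia and Lyz2 passed at an adjusted p under 0.05 under all 17 alternative settings, and all 17 genes kept their direction in every setting that could fit them. With the replicate number as a block, 19 genes were called (0.123% of those tested) and 52 (0.336%) passed without the fold limit. These held all 11 and all 17 of the genes above, and of the 52, 34 were higher and 18 lower. With the sex of the embryo as a term, chosen after seeing the data, 2 genes were called, Nfkbia and Lyz2, and Nfkb2 passed without the fold limit; the other genes of the 11 had adjusted p-values of 0.0501 to 0.151 in that edgeR fit. Their fold changes moved little, for example from 3.37 to 3.35 for Mmp9, 1.17 to 1.21 for Relb and 5.26 to 5.23 for Acod1 on the log2 scale.

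**Figure D2:**
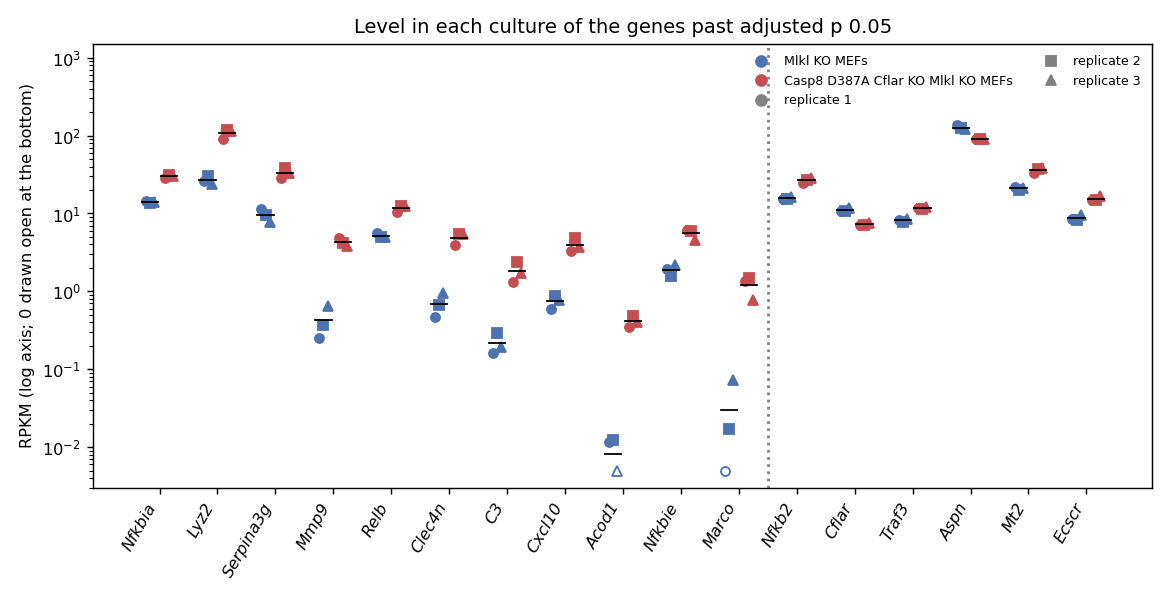
RPKM on a log axis in each of the 6 cultures for the 17 genes past an adjusted p of 0.05, with the called genes left of the dotted line. Blue symbols are Mlkl and red symbols D387A Cflar Mlkl MEFs, the symbol shape gives the replicate number, black lines are means, and open symbols at the bottom are cultures with 0 reads. For every gene drawn the 3 red symbols lie entirely on one side of the 3 blue ones.

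Of the 17 genes past the edgeR test 13 had an upstream window in the table, and the 6 whose windows held a κB match are shown, since most of them belong to the pathway that reads this sequence. The windows are the 250 bases upstream of an annotated start (RefSeq, GRCm38.p6), written 5′ to 3′ on the strand of the gene, and capitals mark matches to the κB consensus, the sequence that Rel dimers bind, found on either strand. Nfkbia lies at chr12:55492648-55492897 (minus strand), Nfkbie at chr17:45555450-45555699 (plus), Nfkb2 at chr19:46304487-46304736 (plus), Cxcl10 at chr5:92348890-92349139 (minus), Serpina3g at chr12:104235897-104236146 (plus) and Traf3 at chr12:111166120-111166369 (plus). Nfkb2 has 3 annotated starts, and the window of the one farthest upstream is shown.
Nfkbia: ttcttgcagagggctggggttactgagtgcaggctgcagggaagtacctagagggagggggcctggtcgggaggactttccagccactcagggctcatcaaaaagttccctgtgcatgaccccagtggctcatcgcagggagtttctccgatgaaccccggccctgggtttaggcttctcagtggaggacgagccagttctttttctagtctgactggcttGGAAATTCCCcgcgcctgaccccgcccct
Nfkbie: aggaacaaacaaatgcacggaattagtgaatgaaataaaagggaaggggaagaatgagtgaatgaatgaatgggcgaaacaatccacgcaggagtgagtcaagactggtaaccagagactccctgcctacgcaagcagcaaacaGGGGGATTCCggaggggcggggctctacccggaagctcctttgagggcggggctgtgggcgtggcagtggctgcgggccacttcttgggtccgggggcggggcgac
Nfkb2: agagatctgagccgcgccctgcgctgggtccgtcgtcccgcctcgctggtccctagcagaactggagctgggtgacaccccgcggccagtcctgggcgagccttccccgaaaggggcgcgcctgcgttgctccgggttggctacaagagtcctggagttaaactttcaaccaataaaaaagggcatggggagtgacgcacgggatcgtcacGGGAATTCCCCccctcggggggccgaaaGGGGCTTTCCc
Cxcl10: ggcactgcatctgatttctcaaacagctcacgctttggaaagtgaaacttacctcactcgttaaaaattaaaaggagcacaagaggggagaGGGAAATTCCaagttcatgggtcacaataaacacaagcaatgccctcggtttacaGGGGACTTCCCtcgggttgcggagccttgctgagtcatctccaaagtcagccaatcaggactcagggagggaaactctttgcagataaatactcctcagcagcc
Serpina3g: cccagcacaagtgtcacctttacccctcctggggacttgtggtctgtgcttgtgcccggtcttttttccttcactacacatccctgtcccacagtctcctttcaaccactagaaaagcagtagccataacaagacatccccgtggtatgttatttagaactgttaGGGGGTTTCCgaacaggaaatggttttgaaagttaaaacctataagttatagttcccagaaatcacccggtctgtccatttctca
Traf3: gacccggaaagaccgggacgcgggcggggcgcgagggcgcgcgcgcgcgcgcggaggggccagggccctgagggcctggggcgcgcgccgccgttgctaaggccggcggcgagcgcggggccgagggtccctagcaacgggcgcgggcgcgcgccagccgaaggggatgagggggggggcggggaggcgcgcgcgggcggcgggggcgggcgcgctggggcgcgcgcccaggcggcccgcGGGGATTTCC
Of the 11 called genes 8 had a window in the table, and 4 of those held a κB match. Over all 32851 windows 7.25% held one, and 8.23% of 27025 genes did. The capitals begin 29 bases before the start in Nfkbia, 106 in Nfkbie, 85 in Serpina3g, 159 and 104 in Cxcl10 and 10 in Traf3, while the Nfkb2 window shown holds runs at 39 and 11 bases and its other windows 1 run each, at 236 and 225 bases. The windows of Lyz2, C3, Acod1 and Marco held none. The AP-1 motif TGANTCA, searched on both strands, was in 6.75% of all windows, and among the called genes Cxcl10 and Nfkbie had it. A match is a description of these letters only.

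Of the inhibitors of NF-κB, Nfkbia and Nfkbie rose. Nfkbia (ENSMUSG00000021025, chr12:55489410-55492647), which encodes IκBα, the inhibitor that holds Rel dimers in the cytoplasm, read 14.4, 13.5 and 13.97 RPKM in Mlkl cultures and 28.9, 31.2 and 30.7 RPKM in D387A Cflar Mlkl cultures. The groups were far apart and each was tight, at 13.95 ± 0.454 (SD, n = 3) and 30.3 ± 1.21 RPKM. The log2 fold change was 1.12 ± 0.07 (edgeR adjusted p = 0.00122), and it ran from 1.09 to 1.15 as single cultures were left out. Nfkbie, which encodes the related inhibitor IκBε (chr17:45555703-45563169), rose from 1.94, 1.56 and 2.20 RPKM to 6.17, 6.02 and 4.62 RPKM. No culture overlapped, and the log2 fold change was 1.56 ± 0.17 (edgeR adjusted p = 0.0184). Among the 6 IκB and atypical IκB genes, 2 rose and 0 fell in edgeR and limma-voom, 3 passed in DESeq2, and their median log2 fold change was 0.64. Of the other 4, Bcl3, an atypical IκB that acts in the nucleus, read 3.30, 2.84 and 4.78 RPKM against 6.45, 6.84 and 5.81 RPKM without passing (log2 fold change 0.82, edgeR adjusted p = 0.366; DESeq2 0.0170). Nfkbib was at 0.46, and Nfkbiz and Nfkbid at -0.13 and -0.26 on the log2 scale, all short of the test.

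Of the 5 genes that encode the Rel proteins themselves, 2 rose and 0 fell, with a median of 0.15. Relb (chr7:19606217-19629438) and Nfkb2 (chr19:46304320-46312385) encode the RelB and p100 subunits of the noncanonical arm, and both rose. Relb read 5.60, 4.96 and 4.996 RPKM in Mlkl cultures and 10.4, 12.3 and 12.3 RPKM in D387A Cflar Mlkl cultures, a log2 fold change of 1.17 ± 0.11 (edgeR adjusted p = 0.00864). Nfkb2 read 15.2, 15.3 and 16.5 RPKM against 24.9, 27.2 and 28.3 RPKM, a log2 fold change of 0.78 ± 0.07 (edgeR adjusted p = 0.00692). Neither gene had overlapping groups. The canonical subunits did not pass: Rela was at 0.13 ± 0.08, Nfkb1 at 0.15 ± 0.08 and Rel at 0.05 ± 0.11 on the log2 scale, and their cultures overlapped.

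Upstream of these factors stand the kinases and adaptors. Of 12 tested, 1 rose and 0 fell, with a median log2 fold change of 0.01. The one that rose was Traf3, an adaptor that keeps the noncanonical kinase NIK at low level, at 8.15, 7.80 and 8.61 RPKM against 11.7, 11.6 and 12.1 RPKM (log2 fold change 0.53 ± 0.06, edgeR adjusted p = 0.0184). Its groups were separate although the shift was small. Map3k14, which encodes NIK, was at 0.01 ± 0.12, and the IκB kinase genes Chuk, Ikbkb and Ikbkg were at -0.01, 0.00 and -0.01 on the log2 scale.

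Feedback regulators are the proteins that end an NF-κB response. Of 12 tested, 0 passed the edgeR test in either direction and 0 passed in limma-voom, whereas 3 passed in DESeq2, and at an unadjusted p under 0.05 there were 6 higher and 1 lower. The 3 cultures of each group did not overlap for 7 higher and 1 lower, where 6.78% of all genes tested were higher and 5.68% lower without overlap (12.5% in all). Birc3, which encodes the ubiquitin ligase cIAP2, read 3.64, 3.77 and 3.78 RPKM against 5.03, 6.30 and 6.47 RPKM. Its log2 fold change was 0.67 ± 0.11 (edgeR adjusted p = 0.129), and with the replicate block it passed at an adjusted p of 0.0451, as it did in DESeq2 (0.000328). Tnfaip3, which encodes the deubiquitinase A20, read 2.35, 1.91 and 2.65 RPKM against 3.61, 3.33 and 3.21 RPKM (edgeR adjusted p = 0.389). N4bp1 was the one with lower cultures, at 18.1, 17.9 and 18.6 RPKM against 16.6, 16.8 and 15.9 RPKM (edgeR adjusted p = 0.658).

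**Figure D3:**
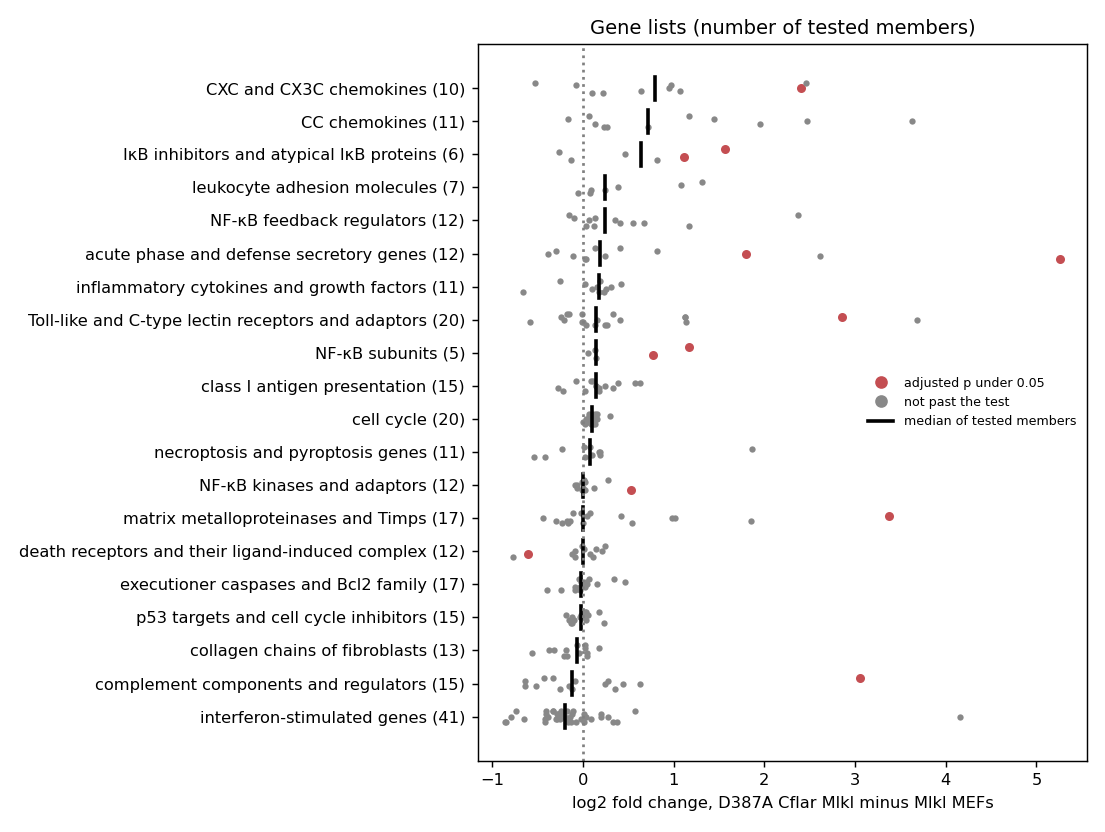
Log2 fold change (D387A Cflar Mlkl minus Mlkl MEFs) of each tested member of 20 gene lists, with 1 point per gene, the number of tested members in brackets, red points past an edgeR adjusted p of 0.05 and a black bar at the median. CXC and CC chemokines and IκB genes have medians of 0.80, 0.72 and 0.64, while interferon-stimulated genes have a median of -0.20. The CC chemokine median was 0.23 with no filter.

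Of the chemokines tested, Cxcl10 passed the edgeR test without the replicate block, and some of the others passed with another tool, with another filter or with the block. Cxcl10 (chr5:92346638-92348889), which encodes a ligand of the chemokine receptor CXCR3 found on T cells, read 0.591, 0.885 and 0.770 RPKM in Mlkl cultures and 3.30, 4.91 and 3.72 RPKM in D387A Cflar Mlkl cultures. The lowest mutant culture stood well above the highest control, and the log2 fold change was 2.41 ± 0.24 (edgeR adjusted p = 0.0108). Of the 10 CXC and CX3C chemokines tested, 1 rose and 0 fell in edgeR and in limma-voom, 2 passed in DESeq2, and the median was 0.80. Cxcl1, a neutrophil attractant, read 3.09, 4.10 and 4.72 RPKM against 7.93, 9.41 and 7.58 RPKM (edgeR adjusted p = 0.143; DESeq2 0.000578), and Cxcl12, which holds stem cells in the marrow, was at -0.08 ± 0.19 on the log2 scale.

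Of the 18 CC chemokine genes 11 were tested. None passed the edgeR or the limma-voom test, 4 passed in DESeq2 (Ccl2, Ccl5, Ccl9 and Ccl20), and 5 were higher and 0 lower at an unadjusted p under 0.05. The median log2 fold change was 0.72, but 0.23 with no filter and 1.17 with a mean of at least 50 reads. It depended on the filter, which can admit a gene through its reads in 1 group only. Ccl5, which attracts T cells and monocytes, read 0.407, 0 and 0.176 RPKM against 2.65, 2.75 and 2.32 RPKM. These were 9 reads in all against 98, the groups were separate, and the log2 fold change was 3.63 ± 0.64 (edgeR adjusted p = 0.143; 0.0744 with the block; DESeq2 0.000244). With single cultures left out it ran from 3.02, without Mlkl replicate 2, to 4.95, without Mlkl replicate 1, with edgeR adjusted p-values up to 0.541. Ccl2, a monocyte attractant and the most abundant of them, read 31.7, 57.3 and 73.2 RPKM against 129, 254 and 243 RPKM. Replicate 1 was the lowest in both groups. The log2 fold change of 1.96 ± 0.33 had an edgeR adjusted p of 0.129 without the block and of 8.04e-05 with it. Ccl7, which shares receptors with Ccl2, was likewise lowest in replicate 1 of both groups, at 21.1, 45.2 and 53.8 RPKM against 48.7, 103 and 116 RPKM. The groups overlapped, and the edgeR adjusted p went from 0.657 to 0.000227 with the block. Ccl20, a ligand of CCR6, read 0.327, 0.554 and 0.231 RPKM against 2.69, 1.79 and 1.85 RPKM, with adjusted p-values of 0.0668 and, with the block, 0.0374.

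The calls outside the NF-κB pathway and chemokine lists were Lyz2, Mmp9, Serpina3g, C3, Clec4n, Acod1 and Marco. Lyz2 (chr10:117277331-117282321), which encodes lysozyme M of macrophages and neutrophils, read 26.1, 30.6 and 23.9 RPKM in Mlkl cultures and 89.3, 118 and 114 RPKM in D387A Cflar Mlkl cultures. The groups did not overlap, and the log2 fold change was 1.99 ± 0.13 (edgeR adjusted p = 0.00122). Lyz2 has a close copy, Lyz1, so the division of reads between them is uncertain. Mmp9 (chr2:164940780-164955850), a gelatinase that cuts matrix and chemokines, read 0.253, 0.372 and 0.649 RPKM against 4.85, 4.13 and 3.83 RPKM. All mutant cultures were several times the controls, with a log2 fold change of 3.37 ± 0.29 (edgeR adjusted p = 0.00692). Of 17 tested metalloproteinase and Timp genes it alone passed in edgeR and limma-voom, DESeq2 also passed Mmp3, and their median was 0.01.

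Serpina3g (chr12:104236245-104241939), a serine protease inhibitor of a family of near-identical copies whose reads may be shared, read 11.3, 9.44 and 7.84 RPKM against 28.7, 38.7 and 32.8 RPKM. The log2 fold change was 1.80 ± 0.15 (edgeR adjusted p = 0.00692), and no cultures overlapped. With Acod1, it was 1 of 2 genes to pass in edgeR and in limma-voom among 12 tested acute phase and defence genes, DESeq2 added its neighbour Serpina3f, and the median was 0.19. C3 (chr17:57203970-57228136), the central complement component, read 0.163, 0.294 and 0.191 RPKM against 1.31, 2.39 and 1.72 RPKM, a log2 fold change of 3.05 ± 0.30 (edgeR adjusted p = 0.0104). Of 15 tested complement genes C3 alone passed in edgeR, DESeq2 and limma-voom, and the median of the list was -0.12. Clec4n (chr6:123229843-123247021), which encodes dectin-2, a receptor for fungal mannans, read 0.474, 0.660 and 0.942 RPKM against 3.89, 5.44 and 5.40 RPKM, a log2 fold change of 2.86 ± 0.28 (edgeR adjusted p = 0.0104). Among 20 tested Toll-like and C-type lectin genes it alone passed in edgeR and limma-voom, DESeq2 passed 4 (Clec4n, Clec4d, Clec4e and Tlr2), and the median was 0.15. The neighbouring lectin receptor Clec4d read 1.54, 2.33 and 1.95 RPKM against 3.51, 4.82 and 4.42 RPKM with edgeR adjusted p-values of 0.175 and, with the block, 0.0470 (DESeq2 adjusted p = 0.00314).

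Among the called genes, the largest fold changes belonged to a pair almost silent in the controls. Acod1 (chr14:103046977-103056573), which makes the antimicrobial metabolite itaconate, had 1, 1 and 0 reads in Mlkl cultures and 20, 27 and 31 in D387A Cflar Mlkl cultures. The pooled ratio, scaled for library size, was 45.4 with a 95% interval of 12.1 to 381 that covers counting error only (edgeR adjusted p = 0.0159). Marco (chr1:120474538-120505024), a scavenger receptor of macrophages, had 0, 1 and 3 reads against 58, 60 and 44, and its fitted log2 fold change was 5.44 ± 0.66 (edgeR adjusted p = 0.0314; 0.0678 in limma-voom). With single cultures left out that fold change ran from 4.80, without Mlkl replicate 1, to 6.81, without Mlkl replicate 3, with adjusted p-values up to 0.262. Over all settings the lowest log2 fold change was 4.24 for Marco and 3.53 for Acod1, against 5.26 for Acod1 in the main fit. Both genes were absent or nearly so from every control and present in every mutant culture.

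Lyz2, Marco and Clec4n are genes of myeloid cells, so the macrophage markers are given as a whole. All 24 markers passed the filter in these cultures. Their summed level was 145 to 195 CPM in Mlkl MEFs and 260 to 346 in D387A Cflar Mlkl MEFs. Of the 24, 2 passed in edgeR, Lyz2 and Marco, 1 in limma-voom, Lyz2, and 5 in DESeq2, which added Ctss, Itgam and Mpeg1. With no overlap 8 were higher and 2 lower, where the shares over all genes were 6.78% and 5.68%. Itgam, an integrin of myeloid cells, read 0.107, 0.107 and 0.0570 RPKM against 0.287, 0.441 and 0.285 RPKM, and Ctss, a lysosomal protease, 7.57, 7.05 and 7.86 RPKM against 9.73, 14.6 and 17.6 RPKM, both without overlap. Lyz2 is also a gene of neutrophils, whose 10 markers were all below the filter, with 1, Retnlg, at 0 reads in every culture. Their summed level was 0.140 to 0.310 CPM in Mlkl MEFs and 0.376 to 2.17 CPM in D387A Cflar Mlkl MEFs, separate between groups. Without Lyz2 and Marco the sum of the macrophage markers was 113 to 160 against 140 to 195 CPM, and 17 of 22 had positive log2 fold changes, with a median of 0.31. Csf1r, the receptor that defines macrophages, read 3.27, 2.01 and 2.06 RPKM against 2.47, 2.86 and 3.15 RPKM (edgeR adjusted p = 0.916). Its groups overlapped, as did those of Adgre1 and of C1qa, whereas Cx3cr1 read 0.797, 0.473 and 0.145 RPKM against 0.131, 0.0839 and 0.144 RPKM. The part of macrophages or neutrophils in the higher Lyz2, Marco, Clec4n, Acod1, C3 and Mmp9 was not tested.

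**Figure D4:**
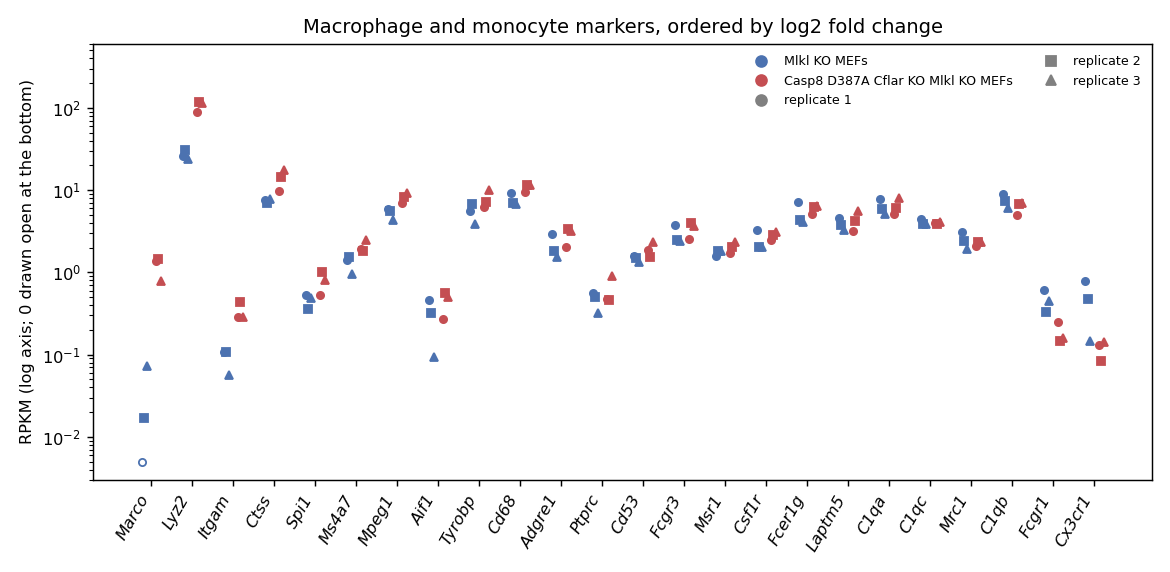
RPKM on a log axis of the 24 macrophage and monocyte markers in each culture, ordered by log2 fold change from left to right, with Mlkl MEFs in blue, D387A Cflar Mlkl MEFs in red and the symbol shape giving the replicate number; the open symbol is a culture with 0 reads. Marco and Lyz2 at the left are the markers past the edgeR test, and from Csf1r rightward to Mrc1 the colours intermix.

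Interferon genes were all but silent. Of 13 type I, II and III interferon genes, 12 had 0 reads in all 6 libraries and Ifne had 1. Of 44 interferon-stimulated genes 41 were tested, and 0 passed in edgeR, DESeq2 or limma-voom, with 1 higher and 1 lower at an unadjusted p under 0.05. Their median log2 fold change was -0.20, and 11 of 41 were positive. That median was -0.35 without D387A Cflar Mlkl replicate 2 and -0.34 without Mlkl replicate 1, and it was -0.04 without Mlkl replicate 3 and -0.06 without D387A Cflar Mlkl replicate 1. Isg15, a ubiquitin-like protein that interferon induces, read 7.78, 14.9 and 22.5 RPKM against 4.34, 12.1 and 8.51 RPKM, and its groups overlapped. Gbp5, a guanylate-binding protein, was the exception in size, with 2 reads in the controls and 36 in the mutants, a pooled ratio of 20.9 with a 95% counting interval of 5.39 to 179 (edgeR adjusted p = 0.198). It was called higher in edgeR with no filter and in the fit with the intestines. Of 15 class I antigen presentation genes 0 passed in edgeR and limma-voom and 1 in DESeq2, with 2 higher and 1 lower at an unadjusted p under 0.05. Tapbp, which encodes the peptide-loading protein tapasin, read 19.0, 17.1 and 17.9 RPKM against 24.8, 32.0 and 26.8 RPKM, with edgeR adjusted p-values of 0.109 and, with the block, 0.0451 (DESeq2 1.24e-05).

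Inflammatory cytokine genes were mostly low and did not pass. Of 24, 11 were tested and 0 passed in edgeR, DESeq2 or limma-voom, with 1 higher at an unadjusted p under 0.05. Il6 had 41, 46 and 43 reads in Mlkl cultures and 31, 50 and 62 in D387A Cflar Mlkl cultures. Tnf had 11, 10 and 2 reads against 8, 12 and 19, below the filter, and Il1b had 0 reads in every culture. The groups overlapped for Il6. Scaled to length and depth, Tnf read 0.208, 0.200 and 0.0571 RPKM against 0.222, 0.346 and 0.397 RPKM, without overlap and not tested. Of 7 leukocyte adhesion genes tested, 0 passed in edgeR and limma-voom and 1 in DESeq2, with 3 higher at an unadjusted p under 0.05. Icam1, a ligand of leukocyte integrins, read 15.4, 12.7 and 12.4 RPKM against 17.9, 18.3 and 16.8 RPKM (edgeR adjusted p = 0.376).

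The death machinery that Cflar belongs to was read next. Of 12 genes of death receptors and their complex, 1 fell, Cflar, and 0 rose, with a median of 0.00. Fadd, the adaptor, read 4.26, 4.24 and 3.79 RPKM against 3.62, 4.11 and 3.84 RPKM, and Ripk1, the kinase of the complex, 10.4, 11.3 and 10.9 RPKM against 9.56, 10.7 and 10.4 RPKM. Both overlapped between groups. Among 11 tested necroptosis and pyroptosis genes 0 passed in edgeR and limma-voom and 1 in DESeq2, with 1 higher at an unadjusted p under 0.05. This was Casp4, the inflammatory caspase that senses lipopolysaccharide, at 0.539, 0.640 and 0.848 RPKM against 2.00, 2.67 and 2.62 RPKM. Its groups were separate, with edgeR adjusted p-values of 0.0567 and, with the block, 0.0256 (DESeq2 1.41e-05). Of 17 executioner caspase and Bcl2 family genes 0 passed in edgeR and limma-voom and 1 in DESeq2, with 1 higher and 1 lower at an unadjusted p under 0.05. Bid, which links caspase-8 to mitochondria, read 15.8, 16.6 and 14.3 RPKM against 20.4, 21.2 and 22.7 RPKM (edgeR adjusted p = 0.129; DESeq2 0.00237).

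Growth-related lists came last. The 20 cell cycle genes all had positive log2 fold changes, with a median of 0.10, but 0 passed in edgeR, DESeq2 or limma-voom and 3 were higher at an unadjusted p under 0.05. Ccnb1, a cyclin of mitosis, had the largest, at 0.30 ± 0.10 (edgeR adjusted p = 0.658). Of 15 p53 target and cell cycle inhibitor genes 0 passed with any of the same tools, 1 was lower at an unadjusted p under 0.05, and the median was -0.02.

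Falls past the edgeR test were few, although 18 genes were lower at any fold with the replicate block and 30 in DESeq2. Aspn (chr13:49544443-49567565), which encodes the matrix proteoglycan asporin, fell from 135, 124 and 121 RPKM to 91.6, 89.9 and 90.5 RPKM. No cultures overlapped, and the log2 fold change was -0.48 ± 0.06 (edgeR adjusted p = 0.0342). It was chosen for mention after its values were seen, as were Mt2 and Ecscr. Mt2, a metallothionein that binds zinc, rose from 22.1, 20.3 and 21.4 RPKM to 33.2, 37.3 and 37.8 RPKM (edgeR adjusted p = 0.0381), and Ecscr, an endothelial surface protein gene, rose from 8.38, 8.26 and 9.50 RPKM to 14.7, 15.05 and 16.8 RPKM (edgeR adjusted p = 0.0381). Cntn2, a neural adhesion molecule gene, read 0.487, 0.489 and 0.489 RPKM against 0.235, 0.178 and 0.205 RPKM and did not pass (log2 fold change -1.24 ± 0.20, edgeR adjusted p = 0.123), whereas DESeq2 called it lower (adjusted p = 0.00411). Htra3, a serine protease gene, read 4.604, 4.68 and 4.58 RPKM against 3.06, 3.21 and 3.12 RPKM (log2 fold change -0.56 ± 0.09, edgeR adjusted p = 0.129; DESeq2 0.00388). Prelp, a matrix proteoglycan gene, and Cmklr1, the chemerin receptor gene, had log2 fold changes of -0.74 and -0.64 with edgeR adjusted p-values of 0.165 and 0.150. Both passed with the block (0.0451 and 0.0126) and in DESeq2 (5.65e-05 and 0.000334), and Prelp also without D387A Cflar Mlkl replicate 3 (0.0129). Itga8, an integrin gene, was at -0.59 (edgeR adjusted p = 0.201) and passed with the block (0.0337) and in DESeq2 (0.00176). Fcrls, an Fc receptor-like gene of myeloid cells, read 3.49, 1.75 and 0.659 RPKM against 0.240, 0.270 and 0.376 RPKM. The controls were uneven but all above the mutant cultures, and the log2 fold change was -2.72 ± 0.57 (edgeR adjusted p = 0.230; 0.0995 with the block). It was called lower in DESeq2 (8.22e-05), with no filter (0.000383), in the fit with the intestines (0.0454) and without Mlkl replicate 3 (0.0358). Col4a3, a basement membrane collagen gene, and Aldh1a1, which encodes a retinal dehydrogenase, were called lower in edgeR without D387A Cflar Mlkl replicate 1, at log2 fold changes of -2.43 and -2.18 (adjusted p = 0.0487 and 0.0459), against -1.43 and -0.99 with every culture (0.691 and 0.827). Of 13 collagen genes 0 passed in edgeR and limma-voom and 1 in DESeq2, with 2 lower at an unadjusted p under 0.05, and the median was -0.06.

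Genes beside the edited locus were examined because Casp8 and Cflar lie together on chromosome 1. Of 62 annotated genes within 1 Mb, without these 2, 25 were tested. None passed in edgeR, with 0 higher and 1 lower at an unadjusted p under 0.05, a median log2 fold change of -0.02 and a background of 6.47% of all genes at that level. The lower one was Mpp4, a scaffold gene, with 15, 14 and 9 reads against 2, 1 and 4 (log2 fold change -2.18, edgeR adjusted p = 0.337).

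The same genotypes were also compared in E18.5 intestine, in 3 libraries against 3 that are not shared with the MEFs. All 11 genes called in MEFs were called higher there, where 9.69% of 17328 genes tested were called higher. Of the 1679 genes called higher in intestine 1263 were tested in MEFs, and 11 of them (0.871%) were called, with a median log2 fold change of 0.06 in MEFs. The sizes of the effects were then compared. By an interaction term over all 12 libraries 7407 of 18113 genes (40.9%) differed between the tissues. Of the 11 called genes 4 had the larger effect in intestine, 1 the larger in MEFs and 6 did not pass. The share of called genes that differed was near that over all genes.

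Nfkbia, at 20.9 ± 1.82 RPKM (SD, n = 3) in Mlkl intestine, stood at 140 ± 5.04 RPKM in D387A Cflar Mlkl intestine, a log2 fold change of 2.74 ± 0.07. The effect in MEFs was smaller by -1.63 ± 0.09 on the log2 scale (edgeR adjusted p = 6.72e-08). Cxcl10 went from 1.07 ± 0.362 to 74.5 ± 17.8 RPKM in intestine, and the effect in MEFs was smaller by -3.72 ± 0.41 (edgeR adjusted p = 1.25e-05). Serpina3g and Relb were the other 2 called genes with a larger effect in intestine. Mmp9 was larger in MEFs, at 3.37 ± 0.29 against 2.35 ± 0.15 on the log2 scale (difference 1.04 ± 0.32, edgeR adjusted p = 0.0178), although its level was higher in intestine, at 6.82 ± 0.513 and 34.7 ± 7.46 RPKM. For Lyz2 the difference of the effects was 0.14 ± 0.19, for C3 -0.16 ± 0.53 and for Nfkbie -0.24 ± 0.25, none past the test (edgeR adjusted p = 0.596, 0.860 and 0.485).

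Interferon-stimulated genes are given for both tissues. In intestine 34 of the 44 tested were called higher, with a median log2 fold change of 2.01, while in MEFs 0 of 41 were called and the median was -0.20. With both tissues in 1 fit Gbp5 was called higher in MEFs. Chemokine medians were 3.40 for CC and 5.57 for CXC and CX3C genes in intestine, over 15 and 12 tested genes, against 0.72 and 0.80 in MEFs, over 11 and 10. With both tissues in 1 fit and under 1 filter the medians in MEFs were 0.25 and 0.62. The differences between tissues in list medians were not tested.

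**Figure D5:**
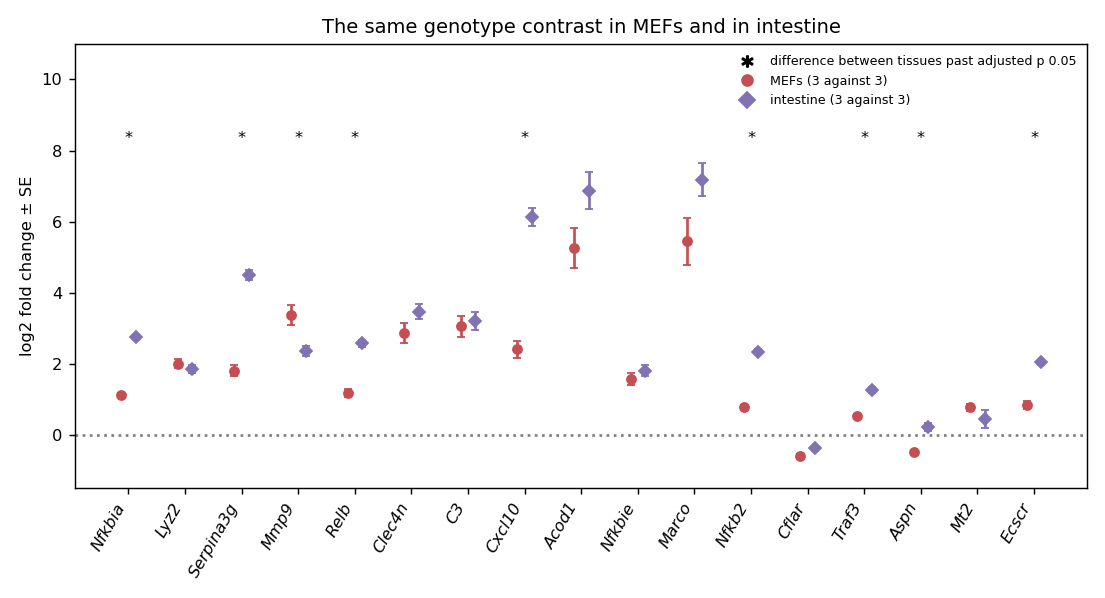
Log2 fold change with its SE (D387A Cflar Mlkl minus Mlkl) in MEFs (red) and in intestine (purple) for the 17 genes past an adjusted p of 0.05 in MEFs, with 3 libraries of each genotype in each tissue and stars at genes whose effects differ between tissues at an adjusted p under 0.05. Cxcl10 shows the widest gap, at 2.41 in MEFs and 6.13 in intestine, and Mmp9 is the one starred gene whose rise is larger in MEFs.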

How the data were processed

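RNA from untreated MEFs was sequenced by the authors as single-end reads. The labels name TruSeq v2 and HiSeq4000, whereas the methods of the study name another kit and instrument for MEFs. Per the labels, GSNAP and GRCm38 (mm10) were used, and the methods of the study restrict the analysis to reads with a unique alignment. The counting tool, its use of strand and any other filter are not given in the sources used here. The deposited values were raw read counts per gene with gene lengths (RPKM columns were also deposited and were not used), and coordinates are those of GENCODE M21. Libraries held 20927014 to 32307629 counted reads. Counts were tested in R 4.3.3 with edgeR 4.0.16 (quasi-likelihood, TMM, filterByExpr with a minimum count of 10 and a total of 15, prior count 0.125), with Benjamini-Hochberg adjustment over all genes tested; a gene was called at an adjusted p under 0.05 and a log2 fold change beyond 1. RPKM were computed from the counts and TMM-scaled totals. Alternatives were DESeq2 1.42.0, limma 3.58.1 (voom), other scalings and filters, single cultures left out, the replicate number as a block, and sex, added after seeing the data. Same-numbered cultures deviated together (Pearson r across genes of 0.27, 0.31 and 0.18, against -0.22 to -0.06 for other pairs). The negative values are no separate evidence of pairing, since deviations were taken from each group's own mean, which pushes other pairs down. The number was therefore tried as a block, while the main counts come from the fit without it. The labels do not say what a number stands for. Genes named were the targeted genes, those the study names for MEFs, every called gene, the 6 largest uncalled falls at an unadjusted p under 0.001, up to 4 members per list and genes whose call depended on a culture or the block. The members and lists were chosen with earlier results of these data known. The fit was tested on simulated data first.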

Additional observations from a re-analysis of the deposited data

Results flagged for a closer look

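Among the 17 genes past an adjusted p of 0.05 in MEFs, 9 had an effect that differed between MEFs and intestine by an interaction term over 12 libraries (edgeR quasi-likelihood, adjusted p under 0.05), where 40.9% of all genes tested did so. The difference, MEFs minus intestine on the log2 scale, was negative for 7 genes that rose in both tissues: Cxcl10 at -3.72, Serpina3g at -2.70, Nfkbia at -1.63, Nfkb2 at -1.56, Relb at -1.40, Ecscr at -1.20 and Traf3 at -0.73. It was positive for Mmp9, at 1.04. For Aspn it was -0.70, since its level fell in MEFs and was at 0.21 ± 0.12 in intestine (adjusted p = 0.136).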

How the results depend on the processing

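In MEFs 11 genes were called and 17 passed at an adjusted p under 0.05. These counts became 45 and 120 with no filter, 36 and 104 in DESeq2, and 19 and 52 with the replicate block. Of the 120, 104 and 52 genes, 34, 30 and 18 were lower. The 2 counts became 31 and 49 when fitted with the intestines, and 2 and 3 with sex as a term. The causes were not tested. Leaving out single cultures gave 2 to 14 and 2 to 20. RLE size factors, raw totals, a mean of at least 50 reads, limma-voom, robust fitting and a prior count of 2 stayed within 1.5 times. The genes differing between tissues ran from 6595 to 7479 and those called in intestine from 3797 to 3947 with single libraries left out. Of 422 values for 25 genes, 327 kept direction and side of an adjusted p of 0.05 at any fold, 74 no longer passed it, 18 newly passed it and 3 reversed, all of Mlkl, at -0.0125 with sex as a term and the other two with single cultures left out (range -0.150 to 0.338). The replicate block removed no call; the genes named here that it added are given with their values. List medians moved beyond their spread for CC chemokines (0.23 with no filter, 1.17 with a mean of at least 50 reads, 0.25 with the intestines), feedback regulators (0.13) and metalloproteinases (-0.0641) with a mean of at least 50 reads, acute phase genes in limma-voom (0.33) and Toll-like and lectin genes with sex (0.0945). With single cultures left out the medians ran from 0.65 to 1.14 for CC and 0.47 to 0.86 for CXC chemokines, 0.11 to 0.23 for NF-κB subunits, 0.24 to 0.30 for feedback regulators, 0.0655 to 0.301 for cytokines, 0.29 to 0.49 for adhesion molecules, -0.14 to 0.10 for complement, 0.0508 to 0.448 for acute phase genes, -0.0314 to 0.0217 for death receptors, -0.0342 to 0.0167 for executioner caspases, -0.0560 to 0.00174 for metalloproteinases and 0.0873 to 0.172 for Toll-like and lectin genes. Depth limits genes such as Acod1 and Marco, with a handful of control reads, and neither was tested with a mean of at least 50 reads.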

Other observations

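Matrix proteoglycans were looked at after Aspn was seen. Of 13 small leucine-rich proteoglycan genes tested 1 passed in edgeR and limma-voom, Aspn, 4 passed in DESeq2 and 3 with the replicate block, all lower. In all, 4 were lower and 1 higher with no overlap (5.68% and 6.78% of all genes tested), and the median log2 fold change was -0.21. Fmod, which encodes fibromodulin, read 53.04, 49.2 and 41.7 RPKM in Mlkl cultures and 34.6, 33.5 and 36.8 RPKM in D387A Cflar Mlkl cultures (edgeR adjusted p = 0.198; DESeq2 0.00200). Podn, which encodes podocan, read 8.83, 9.38 and 8.79 RPKM against 5.81, 6.96 and 5.66 RPKM and passed with the replicate block (adjusted p = 0.0451). Of 11 osteoclast genes tested 6 had positive log2 fold changes, with a median of 0.04, and 1 passed in edgeR, Mmp9. Acp5 and Atp6v0d2 were without overlap at edgeR adjusted p-values of 0.165 and 0.129 and passed in DESeq2 (0.000462 and 0.0197).

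Liver genes were present at low level and uneven. Of 14 hepatocyte genes 4 were tested, 3 with positive log2 fold changes and a median of 1.85 over the 4. In edgeR and limma-voom 0 passed, in DESeq2 1 and with the block 2. Afp, the fetal serum protein, read 0, 0.922 and 0.522 RPKM against 7.04, 17.3 and 2.60 RPKM, and Alb read 0.0304, 0.242 and 0.0460 RPKM against 0.717, 2.53 and 0.404 RPKM. Both were highest in D387A Cflar Mlkl replicate 2, and edgeR adjusted p-values were 0.279 and 0.442, and 0.0418 and 0.0128 with the block. DESeq2 passed Alb (0.00232) and not Afp (0.520), and without the filter both passed (6.47e-05 for Afp and 0.00379 for Alb). Ttr had 0 reads in all against 45 and Ambp 5 against 79, below the filter. Adamtsl2, a matrix protein gene, was the one call in the lower direction with the block (log2 fold change -1.48, adjusted p = 0.0451), and DESeq2 called it lower as well (0.0293). These lists and genes were chosen after seeing the data.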
